A study of Mus musculus with 2 samples.

Results

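Midkine (Mdk) and pleiotrophin (Ptn), the members of a family of heparin-binding growth factors, and 7 genes of cell surface molecules that bind them were followed through the development of the mouse gastroesophageal squamocolumnar junction (GE-SCJ). The receptors were the syndecans Sdc1, Sdc2, Sdc3 and Sdc4, the receptor tyrosine phosphatase Ptprz1, the endocytic receptor Lrp1 and nucleolin (Ncl). The genes were chosen by name for what they encode, with earlier results of these data known. The 9 genes were part of the 19550 genes counted. Single cells of esophagus, GE-SCJ and stomach came from wild-type C57BL/6 mice at embryonic days 15 (E15) and 19 (E19), from pups of day 2 and from adults of week 8. Cells of each region and stage carried their own oligonucleotide tag and were sequenced together in 1 gene expression library. The adult stomach has no cells in the data, which leaves 11 of 12 region and stage groups. Mice were pooled within a tag and a cell cannot be traced to its mouse, so a group is 1 sample without replicates and no difference was tested.

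Midkine and pleiotrophin are secreted proteins rich in basic residues, abundant in embryonic tissues and low in most adult ones. They bind the glycosaminoglycan chains of proteoglycans in the matrix and at the cell surface. Syndecans are transmembrane proteoglycans that carry heparan sulfate and hold such ligands next to the cell. Ptprz1 carries chondroitin sulfate and is best known from glia and neural progenitors, where pleiotrophin binding lowers its phosphatase activity. Lrp1 takes up many extracellular ligands, and nucleolin is mainly a nucleolar protein of ribosome production, of which a part is found at the cell surface.

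The 9 genes lie on 7 chromosomes of the GRCm38 build. Mdk occupies chr2:91929805-91932297 on the minus strand and Ptn the far longer interval chr6:36714929-36810220, also on the minus strand. Sdc3 and Lrp1 overlap 2 and 1 annotated antisense genes, and Ncl holds 4 small RNA genes on its own strand. Promoter sequence was available from RefSeq (GRCm38.p6) for 7 of the 9 genes, with no entry for Mdk and Sdc2. It is shown for 3 genes that differed in their spread over cell types, since Ncl was found in every label, Ptn in several and Ptprz1 mainly in neural cells. They are Ptn (chr6:36810221-36810429, minus strand), Ptprz1 (chr6:22875252-22875501, plus strand) and Ncl (chr1:86359456-86359705, minus strand). Each run is written 5′ to 3′ and ends before the first base of the gene, and capitals mark the GC box GGGCGG on either strand. The Ptn and Ptprz1 windows reach the gene as GENCODE places it. GENCODE starts Ncl at chr1:86359400, so a gap lies between its window and the gene. The bases that follow the Ncl window were not found in a GENCODE transcript of Ncl.
Ptn: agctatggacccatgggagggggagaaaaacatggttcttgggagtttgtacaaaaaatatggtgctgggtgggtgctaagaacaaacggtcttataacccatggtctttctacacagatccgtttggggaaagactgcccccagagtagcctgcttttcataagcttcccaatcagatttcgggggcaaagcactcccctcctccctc
Ptprz1: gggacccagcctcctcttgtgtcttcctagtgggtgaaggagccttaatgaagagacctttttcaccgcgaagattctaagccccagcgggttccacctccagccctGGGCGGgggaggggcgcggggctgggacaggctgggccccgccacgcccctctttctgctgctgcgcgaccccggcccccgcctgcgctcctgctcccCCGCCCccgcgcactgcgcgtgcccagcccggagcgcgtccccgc
Ncl: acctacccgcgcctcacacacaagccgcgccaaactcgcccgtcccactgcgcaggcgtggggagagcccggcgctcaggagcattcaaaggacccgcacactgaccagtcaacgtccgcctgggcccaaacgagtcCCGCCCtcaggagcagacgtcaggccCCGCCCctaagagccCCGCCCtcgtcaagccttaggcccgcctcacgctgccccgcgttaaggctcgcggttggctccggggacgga
The Ptn window, of 209 bases with 49.8% G and C, held no GC box, whereas the Ptprz1 window held 2 and the Ncl window 3. From the Ptn window the 41 bases nearest the RefSeq start were left out, since GENCODE places them in the gene. Among 32851 promoters, 26.5% held a GC box in the same 209 bases, without the 41 nearest the start. In all 250 bases 32.7% held one. Neither the E-box CACGTG nor the TATA box TATAAA was found in any of these 3 windows on either strand. These matches describe the letters only.

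Unique molecular identifiers (UMIs) of a gene were summed over the cells of a deposited label, region and stage and divided by all UMIs of the group to give CPM (counts per 1e6 UMIs), shown here with exact 95% Poisson intervals. Intervals cover counting error only. The 7808 cells had a median of 10424.5 UMIs, the 9 deposited labels made 93 groups, and 55 groups with at least 20 cells are described. Each label had its own marker list as the highest among those checked, with 2 exceptions. Hemoglobin RNA led the endothelial and immune labels. In a second stromal label, set against mesothelial markers, fibroblast markers led with 10199 CPM against 1841 of mesothelial ones. These are sums over a whole label. In neural groups fibroblast markers exceeded neural ones in the pup stomach (8183 against 1193 CPM), the pup esophagus (9999 against 2089), the E19 GE-SCJ (2946 against 1686) and the E15 esophagus (1754 against 1694), and 31.7% of neural cells kept their class when a class needed a marker list with at least 3 times the UMIs of any other. A stromal cell had a median of 10573 UMIs in the E15 esophagus and of 3859 in the pup esophagus. Between genes, CPM are not compared. Ratios are log2 values with 1 UMI added to each sum, and a gene counts as past 2-fold where the ratio is at least 1 in size with at least 100 UMIs over both groups.

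Mdk was highest in stromal cells before birth and lower after it in all 3 regions. In esophageal stromal cells Mdk stood at 1099 (1065 to 1132) CPM at E15, 664 (645 to 684) at E19, 186 (154 to 223) in pup and 80.5 (42.8 to 138) in adult mice. The GE-SCJ stroma had 1133 (1099 to 1167) CPM at E15, 932 (908 to 958) at E19 and 188 (148 to 236) in the pups. Stomach stroma had 1299.9 (1264 to 1337), 1059.9 (1035 to 1085) and 282 (235 to 336) CPM at the same stages. The order of stages was the same in each region, with no overlap of the counting intervals between E19 and pup. Smooth muscle cells followed at a lower level, with 468 CPM at E15, 342 at E19 and 149 in the pups at the GE-SCJ.

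In epithelium Mdk was lower at E19 than at E15. Stomach columnar cells held 608 (584 to 633) CPM at E15, 39.3 (35.4 to 43.5) at E19 and 12.4 (10.5 to 14.7) in the pups. Columnar cells of the GE-SCJ held 907 (857 to 960.0), 106 (98.8 to 114) and 11.2 (9.05 to 13.8) CPM. Between E15 and E19 the columnar level thus differed past 2-fold while the stromal level in the same regions stayed within it, with log2 ratios of E15 over E19 of 3.95 (3.79 to 4.11) against 0.29 (0.24 to 0.35) in the stomach, where 2.6% of columnar genes tested were past 2-fold higher at E15. The difference between these ratios was not tested. Esophageal squamous cells held 288 (255 to 324) CPM at E15, 74.8 (62.2 to 89.2) at E19, 10.5 (3.86 to 22.9) in pup and 16.5 (12.4 to 21.6) in adult mice. Squamous cells of the GE-SCJ went from 581 (532 to 632) CPM at E15 to 14.8 (9.41 to 22.3) in the adult, and the pup and adult intervals overlapped in both regions. Immune cells, taken as a class for comparison, had 63.5 CPM at E15 and 43.8 at E19 in the stomach. The E19 columnar level there was no higher than the immune one. Nor were the squamous levels of E19 and pup in the esophagus, where immune cells had 134 CPM at E19 and 27.9 in the pups. At the E19 GE-SCJ immune cells had 77.01 CPM and squamous cells 72.3, whereas columnar cells stood above both at 106. Fibroblast markers summed to 1269 CPM over the whole immune label. How much of the immune level is RNA from outside the cell was not tested.

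Neural cells of the stomach showed no such decline. They held 397 (357 to 439) CPM of Mdk at E15, 433 (375 to 496) at E19 and 411 (295 to 558) in the pups, with overlapping intervals. The pup value came from 20 cells, and 1 cell gave 26.8% of its Mdk UMIs. Esophageal neural cells went from 322 (285 to 363) to 136 (74.4 to 228) CPM between E15 and pup.

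Within stomach stroma and within stomach columnar cells, shares of cells gave the same order of E15 and pup as the summed levels. In stomach stroma 99.7% (98.5% to 99.99%) of cells had an Mdk UMI at E15 and 61.5% (49.8% to 72.3%) in the pup, with exact Clopper-Pearson intervals. Thinned shares were taken over cells with at least 5000 UMIs only, each thinned to 5000 UMIs, and shallower cells were left out. In stomach stroma they were 99.7% and 56.8%, the latter for the deeper part of the pup cells. In stomach columnar cells 92.9% (87.3% to 96.5%) had an Mdk UMI at E15 and 27.4% (22.8% to 32.3%) in the pup, and the thinned shares were 74.1% and 7.33%. Immune cells of the E15 stomach, with a median of 13615 UMIs against 24673 in the columnar cells, had an Mdk UMI in 22.6% (9.59% to 41.1%), and in 15.4% after thinning. The thinned pup columnar share is not ranked against this thinned immune share, which comes from another stage and rests on at most 31 cells.

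Ptn, the second ligand, differed from Mdk in where it persisted. Esophageal stroma held 1518 (1479 to 1557) CPM at E15, 667 (648 to 686) at E19, 981 (905 to 1062) in pup and 446 (349 to 561) in adult mice. The GE-SCJ stroma had 840.2 (811 to 870.0), 740.4 (718 to 763) and 114 (83.4 to 153) CPM at E15, E19 and pup, and stomach stroma had 1167 (1133 to 1202), 428 (412 to 444) and 222 (180.2 to 269.9). In the pup the esophagus thus stood above both other regions, with a log2 ratio over the stomach of 2.13 (1.83 to 2.45). The adult esophageal value rests on 31 cells, of which 1 gave 43.1% of the Ptn UMIs, and in the GE-SCJ pup 1 of 82 cells gave 31.1%.

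Squamous cells kept Ptn through every stage, whereas columnar cells had little. Esophageal squamous cells held 526 (482 to 574) CPM at E15, 361 (333 to 391) at E19, 198 (163 to 238) in pup and 138 (125 to 151) in adult mice. Those of the GE-SCJ held 425 (383 to 469), 217 (177 to 263), 214 (179.7 to 252) and 145 (126 to 165) CPM. Stomach columnar cells, in contrast, had 20.98 (16.7 to 26.1) CPM at E15 and 7.71 (6.18 to 9.49) in the pup, against 9.77 CPM in E15 stomach immune cells. Columnar cells of the GE-SCJ had 79.3 (64.9 to 96.02) CPM at E15, 35.04 (30.8 to 39.6) at E19 and 6.22 (4.63 to 8.18) in the pups. Immune cells held 134 CPM of Ptn at both E15 and E19 and 10.5 in the pup of the esophagus. In the GE-SCJ they held 22.1, 60.6 and 16.9 CPM at E15, E19 and pup. Adult immune cells, 5 in the esophagus and 1 in the GE-SCJ, were too few to set beside the adult squamous levels. In the adult esophagus 51.3% (44.7% to 57.9%) of squamous cells had a Ptn UMI, and 46.2% after thinning, whereas 14.5% (11.01% to 18.7%) of the deeper pup stomach columnar cells had one, and 4.11% after thinning.

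The highest Ptn levels of all groups were those of neural cells after birth. Neural cells held 1045 (977 to 1117) CPM in the E15 esophagus and 2031 (1765 to 2326) in the pup. In the stomach they held 765 (709.8 to 823) CPM at E15, 1562 (1451 to 1678) at E19 and 2186 (1906 to 2496) in the pups. All 20 pup stomach neural cells had a Ptn UMI. Fibroblast markers, summed over 6 genes, moved with this, from 299 CPM at E15 to 8183 in the pup in stomach neural cells. They were also higher in the pup than at E15 in esophageal neural cells. Pup stromal cells held 222 CPM of Ptn with 22711 CPM of these markers in the stomach, and 981 with 28236 in the esophagus. The part of these markers in the neural Ptn levels was not tested. Smooth muscle of the esophagus went the other way, with 1478 (1408 to 1550.1) CPM at E15, 569 (502 to 642) at E19 and 375 (271 to 505) in the pup. Its 30 adult cells held a single UMI, at 5.83 (0.148 to 32.5) CPM. In the other regions smooth muscle Ptn was lower only after E19. It stood at 870, 1134 and 253 CPM at E15, E19 and pup in the GE-SCJ. Stomach levels were 429, 439 and 133 CPM.

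**Figure D1:**
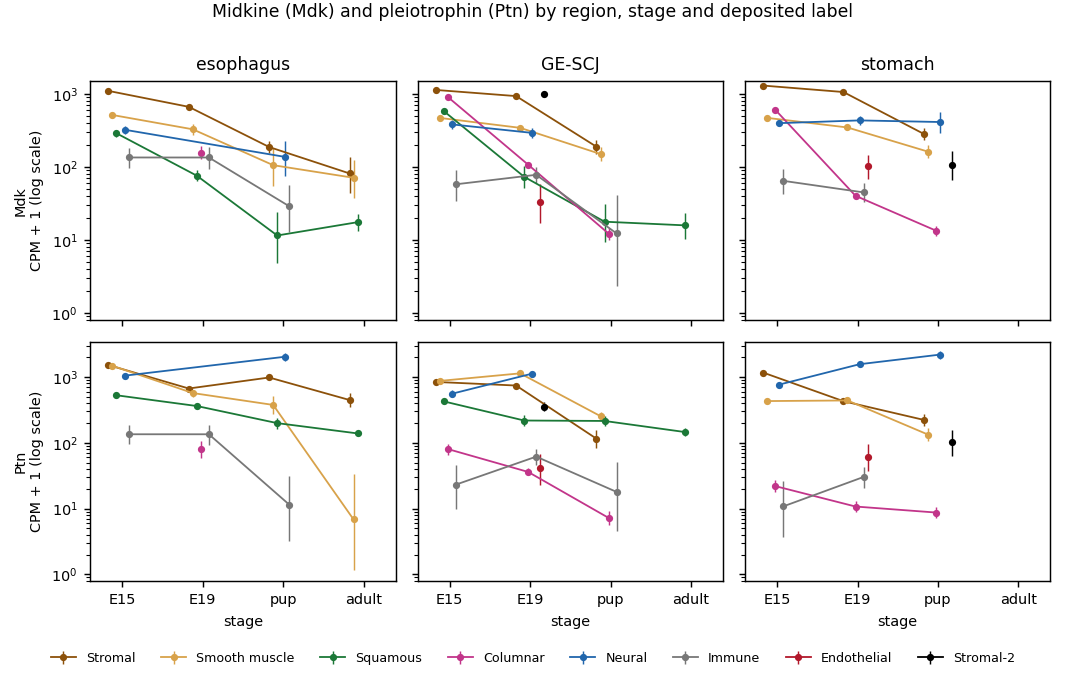
CPM + 1 on a log axis of Mdk (top) and Ptn (bottom) at each stage in esophagus, GE-SCJ and stomach, with a point for each deposited label of at least 20 cells and bars for exact 95% Poisson intervals. Mdk declines from E15 in stromal, smooth muscle, squamous and columnar cells, whereas neural Ptn in the stomach stands higher in the pup, at 2186 CPM, than at E15, at 765 CPM.

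The 4 syndecans divided by cell type. Sdc1, the syndecan of epithelia, was highest in squamous cells at every stage. The esophageal squamous values were 163 (139 to 190.1) CPM at E15, 237 (214 to 262) at E19, 154 (124 to 189.9) in pup and 239.9 (223 to 257) in adult mice. At the GE-SCJ they were 199 (171 to 230.4), 270.1 (225 to 321), 317 (276 to 364) and 341 (313 to 372) CPM. Columnar cells of the stomach held 56.2 CPM at E15, 54.9 at E19 and 32.6 in the pups, levels close to those of E15 stromal cells, which ranged from 40.2 CPM in the esophagus to 62.3 in the GE-SCJ. Stromal Sdc1 in the pup was 9.56 (3.51 to 20.8) CPM in the esophagus, from 6 UMIs, and 24.6 (12.3 to 44.1) in the stomach, from 11 UMIs.

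Sdc2, the syndecan of mesenchymal cells, was carried by stroma and smooth muscle. In esophageal stroma it stood at 83.7 (74.8 to 93.4) CPM at E15, 159 (149.7 to 169) at E19, 264 (226 to 308) in pup and 477 (376 to 596) in adult mice. None of these intervals overlapped, and the order was the reverse of that of Mdk. In the GE-SCJ stroma Sdc2 was 94.7 (85.1 to 105) CPM at E15 and 135 (101 to 176) in the pup, and in stomach stroma 99.5 (89.8 to 110.1) and 175 (138 to 218). Squamous levels were between 5.16 and 20.5 CPM and columnar levels between 11.2 and 23.1 CPM.

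Sdc3, known from the nervous system, was highest in neural cells of the pup. Esophageal neural cells held 85.4 (66.7 to 108) CPM at E15 and 311 (213 to 439) in the pup, and stomach neural cells 85.1 (67.5 to 106), 80.2 (56.8 to 110.1) and 281 (187 to 406) CPM at E15, E19 and pup. Stromal Sdc3 took the opposite direction, with 48.98 (42.2 to 56.5) CPM at E15, 71.4 (65.1 to 78.1) at E19 and 8.96 (2.44 to 22.9) in the pups of the stomach, the last from 4 UMIs. In smooth muscle of the stomach Sdc3 stayed between 97.4 and 113 CPM at all 3 stages. Immune cells had 39.1 CPM at E15 in the stomach and 135 in the GE-SCJ pup.

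Sdc4, a widely expressed syndecan of cell adhesion sites, had a similar level in all columnar groups. Across 7 columnar groups it ranged from 261 to 303 CPM and across 8 squamous groups from 189.8 to 391 CPM. Stromal Sdc4 was lower than this before birth and higher after it than before. In esophageal stroma it stood at 35.7 (29.95 to 42.2) CPM at E15, 60.6 (54.97 to 66.7) at E19, 153 (124 to 187) in pup and 266 (193 to 358) in adult mice. GE-SCJ stroma had 42.98 (36.6 to 50.1) CPM at E15 and 137 (103 to 179) in the pup, and stomach stroma 53.4 (46.3 to 61.3) and 123 (92.8 to 160.3). In the stomach pup 1 of 78 cells gave 32.7% of the Sdc4 UMIs. Smooth muscle showed the same direction, with 60.5 (49.2 to 73.6) CPM at E15 and 263 (222 to 309.5) in the pup of the stomach, beside a sum of fibroblast markers that went from 3374 to 10155 CPM, and the part of the latter was not tested. Immune cells reached 1184 (1029 to 1355) CPM in the GE-SCJ pup, the highest level of Sdc4 in any group, and in endothelial cells of the E19 stomach 0 of 295791 UMIs were Sdc4, which allows up to 10.1 CPM.

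**Figure D2:**
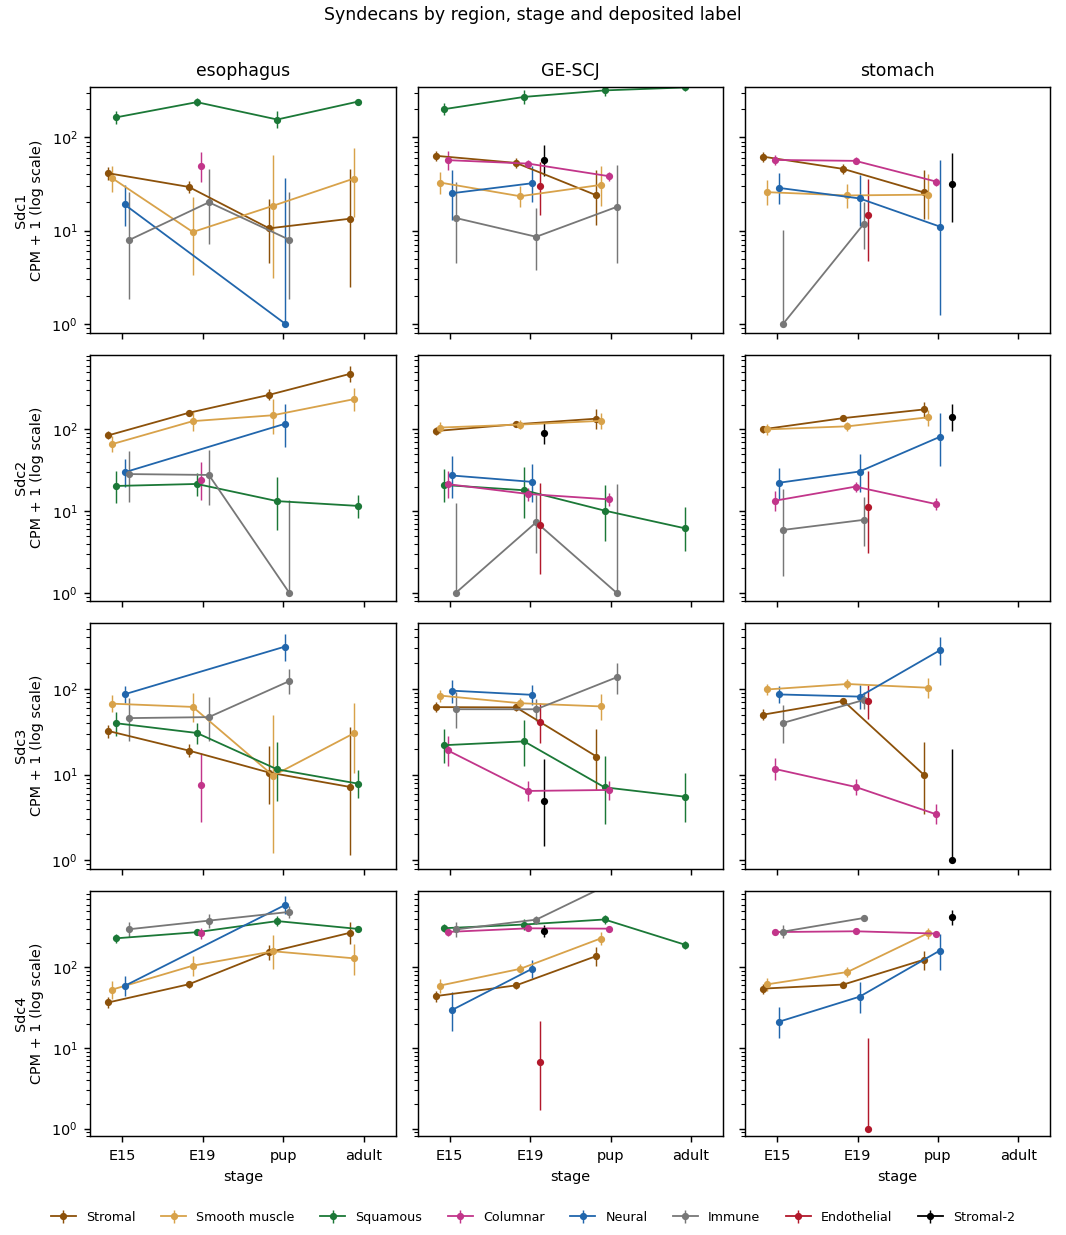
CPM + 1 on a log axis of Sdc1 to Sdc4 (rows) by stage in the 3 regions, with a point for each label of at least 20 cells and bars for exact 95% Poisson intervals. Squamous cells lead in Sdc1, stromal and smooth muscle cells in Sdc2 and neural cells of the pup in Sdc3, whereas stromal Sdc4 in the esophagus goes from 35.7 CPM at E15 to 266 CPM in the adult.

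Ptprz1, the phosphatase receptor of pleiotrophin, was highest in neural cells, with a second peak in squamous epithelium. Neural cells held 444 (399.7 to 492) CPM at E15 and 544 (411 to 707) in the pup of the esophagus, 303 (254 to 357) at E15 and 519 (465 to 578) at E19 in the GE-SCJ, and 285 (252 to 321), 631 (562 to 707) and 913 (735 to 1120.4) at E15, E19 and pup in the stomach. Stromal groups had at most 12.4 CPM and columnar groups at most 3.02 CPM, while a second stromal label of 46 cells in the E19 GE-SCJ had 54.5 (36.2 to 78.8). The squamous peak was in the pup. Esophageal squamous cells held 35.6 (24.8 to 49.5) CPM at E15, 34.4 (26.1 to 44.6) at E19, 434 (382 to 492) in pup and 16.5 (12.4 to 21.6) in adult mice. The pup level was past 2-fold above the E15 and adult levels, with log2 ratios of E15 and adult over pup of -3.57 (-4.12 to -3.06) and -4.70 (-5.15 to -4.27), where 4.16% and 9.52% of all genes were past 2-fold lower.

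The 248 Ptprz1 UMIs of the pup esophagus came from 48 of 56 squamous cells, and the 5 cells with the most held 30.2% of them. Summed over 6 genes, neural markers stood at 9.67 CPM in the squamous cells with a Ptprz1 UMI and at 18.6 CPM in the few without. Both values rest on very few UMIs and are not compared with each other. Neural cells of the same region and stage had 2089 CPM. Squamous cells of the GE-SCJ had 1.11 (0.028 to 6.16) CPM at E15, 2.13 (0.0539 to 11.9) at E19, 88.5 (67.2 to 114) in pup and 16.8 (10.96 to 24.6) in adult mice, where the 58 UMIs of the pup came from 20 of 44 cells, with 67.2% in the 5 cells with the most and 15 in 1 cell. A second squamous label, of 29 cells in the pup esophagus, had no Ptprz1 UMI and was also low in all other genes described here, with 44.8 CPM of Ncl.

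Lrp1, which binds midkine and internalizes ligands, was highest in stromal or immune cells. Esophageal stroma had 232 (217 to 248) CPM at E15, 249.7 (238 to 262) at E19, 432 (382 to 486) in pup and 483 (382 to 603) in adult mice. GE-SCJ stroma had 189.7 (176 to 204) CPM at E15 and 356 (299 to 419.7) in the pup, and stomach stroma 201 (187 to 216) and 325 (274 to 382). Between E15 and pup these increases were within 2-fold in each region. Immune cells had 112 to 321 CPM, squamous cells 32.04 to 65.9 and columnar cells 15.9 to 52.9. Smooth muscle ranged from 44.1 CPM in the E15 esophagus to 215 in the pup stomach. Neural cells ranged from 32.9 CPM in the E15 GE-SCJ to 175 in the pup esophagus.

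Ncl was present in every label and was highest at E15 in both epithelia. Stomach columnar cells held 1041 (1009 to 1074) CPM at E15, 681 (665 to 698) at E19 and 389 (378 to 401) in the pups. Esophageal squamous cells held 969 (908 to 1033), 673 (635 to 714), 582 (521 to 648) and 585 (559 to 612) CPM at E15, E19, pup and adult. In stromal cells the range was from 266 CPM in the adult esophagus to 753 CPM in the E15 stomach.

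**Figure D3:**
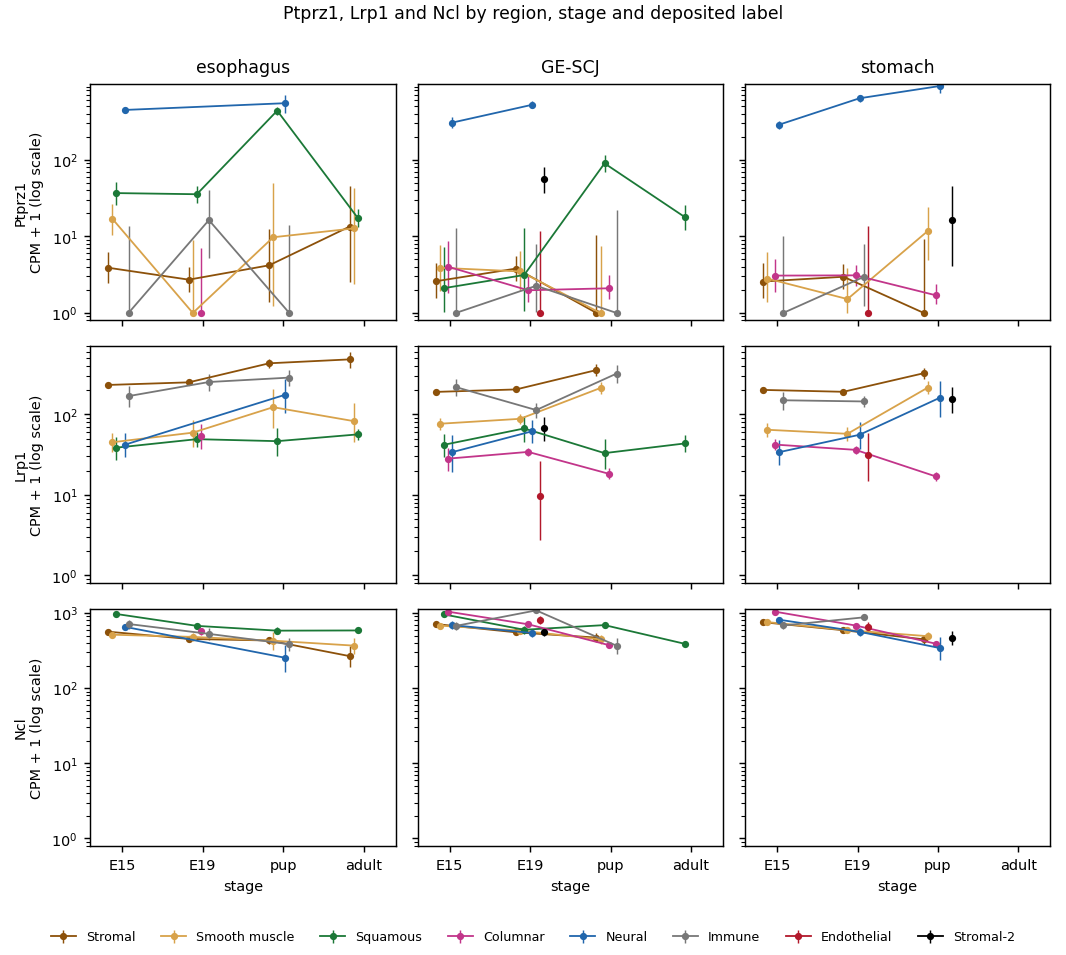
CPM + 1 on a log axis of Ptprz1, Lrp1 and Ncl (rows) by stage in the 3 regions, with a point for each label of at least 20 cells and bars for exact 95% Poisson intervals. Ptprz1 is highest in neural cells and, at 434 CPM, in squamous cells of the pup esophagus, Lrp1 is highest in stromal or immune cells, and Ncl is spread over all labels.

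The change across birth was then compared over all 9 genes as the log2 ratio of E15 over pup within each label. In stromal cells Mdk, Sdc1 and Sdc3 were past 2-fold higher at E15 and Sdc4 past 2-fold lower in each of the 3 regions. Mdk ratios were 2.55 (2.28 to 2.82) in the esophagus, 2.57 (2.24 to 2.92) in the GE-SCJ and 2.19 (1.94 to 2.46) in the stomach. Sdc4 ratios were -2.10 (-2.49 to -1.71), -1.69 (-2.14 to -1.22) and -1.22 (-1.66 to -0.77), and the last was -0.77 without the 1% of cells richest in Sdc4 and -0.93 when CPM were averaged over single cells, both within 2-fold. With classes taken from markers Sdc3 was within 2-fold in the esophagus and stomach, at 0.10 and 0.32, and Sdc1 in the GE-SCJ, at 0.91. Ptn was past 2-fold higher at E15 in GE-SCJ and stomach, at 2.85 and 2.38, and within 2-fold in the esophagus, at 0.63 (0.51 to 0.75). Sdc2 was past 2-fold lower at E15 in the esophagus, at -1.66 (-1.94 to -1.38), and within 2-fold in the other two regions.

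Of the 9 genes 8 had enough UMIs in the stroma of each region. The counts of higher genes include Sdc1 and Sdc3, whose intervals reach below 2-fold. In the esophageal stroma 3 of these were higher at E15 and 2 lower. Of all genes tested there 12.0% were past 2-fold higher and 8.84% lower. In the GE-SCJ stroma 4 were higher and 1 lower, against 12.8% and 7.89%. Stomach stroma also had 4 higher and 1 lower, against 10.5% and 6.88%. Medians over all genes were 0.12, 0.13 and 0.14. Summed columnar markers moved with the stage, from 337 CPM at E15 to 753 in the pup of the esophageal stroma, and smooth muscle markers from 1455 to 588 CPM, and their part in the result was not tested.

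Other labels shared the change of Mdk. In columnar cells Mdk, Ptn and Ncl were past 2-fold higher at E15 in both regions, with Mdk ratios of 6.32 (6.02 to 6.64) in the GE-SCJ and 5.60 (5.36 to 5.86) in the stomach. These were 3 of the 7 genes with enough UMIs in the GE-SCJ, where 19.3% of all genes tested were higher. Lrp1 was past 2-fold higher at E15 as well in the stomach, at 1.37 (1.06 to 1.68). There 4 of the 7 genes with enough UMIs were past 2-fold, where 27.9% of all genes tested were past it in either direction. In squamous cells Mdk was past 2-fold higher at E15 in both regions, at 4.56 in the esophagus and 4.99 in the GE-SCJ, and Ptn in the esophagus. The counts of higher genes were 2 of 6 with enough UMIs in the esophagus and 1 of 5 in the GE-SCJ. The shares of all genes tested were 13.6% and 11.4%. Fibroblast markers in these squamous cells summed to 1869 CPM at E15 and 387 in the pup of the esophagus, and to 346 and 305 in the GE-SCJ, and their part in the result was not tested.

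Smooth muscle had Mdk and Ptn past 2-fold higher at E15 in all 3 regions, with 11.7%, 11.7% and 12.5% of all genes higher in esophagus, GE-SCJ and stomach. Sdc4 and Lrp1 were past 2-fold lower in GE-SCJ and stomach, where 10.7% and 10.2% of all genes were lower. In these smooth muscle cells fibroblast markers summed to 4065 CPM at E15 and 9336 in the pup of the GE-SCJ and to 3374 and 10155 in the stomach, where smooth muscle markers went from 33180.1 to 22794, and their part in the Lrp1 result was not tested. Stomach neural cells had Ptn, Sdc3 and Ptprz1 past 2-fold lower at E15, at -1.52 (-1.74 to -1.30), -1.76 (-2.38 to -1.09) and -1.69 (-2.04 to -1.33), against 9.34% of all genes. Ncl was past 2-fold higher at E15 there, at 1.21 (0.73 to 1.75), against 18.7%. In esophageal neural cells Sdc3 and Sdc4 were past 2-fold lower at E15, at -1.89 and -3.35, against 11.5% of all genes, and 1 of 24 pup cells gave 29.5% of the Sdc4 UMIs. Mdk and Ncl were past 2-fold higher at E15 in these cells, at 1.15 (0.40 to 2.01) and 1.32 (0.77 to 1.94), against 20.7%. The intervals of these higher neural ratios all reach below 2-fold. Fibroblast markers summed to 1754 CPM at E15 and 9999 in the pup of these esophageal neural cells, and their part was not tested.

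**Figure D4:**
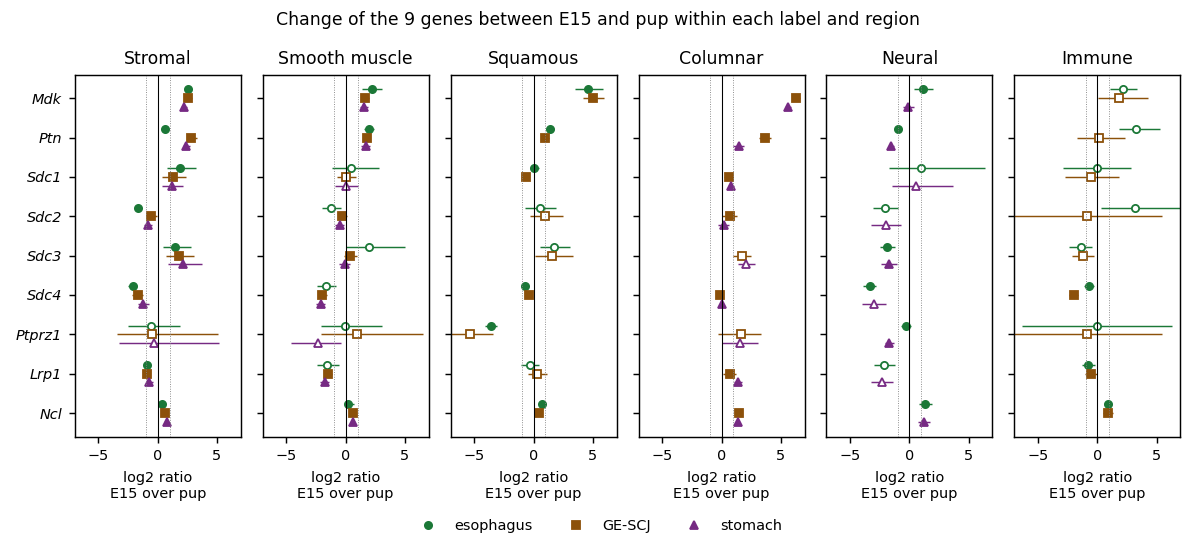
Log2 ratio of E15 over pup for the 9 genes in 6 labels, with a symbol for each region, bars for 95% intervals of counting error (cut at the edge of the axis where wider) and dotted lines at 2-fold. Open symbols have under 100 UMIs over both stages, and Mdk lies to the right in stromal, smooth muscle, squamous and columnar cells while Sdc4 lies to the left in stromal cells.

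Adult and pup could be compared in the esophagus for stroma and smooth muscle and in both regions for squamous cells. Esophageal smooth muscle had 30 adult and 22 pup cells. Only Ncl had enough UMIs there, with a ratio of adult over pup of -0.22 (-0.78 to 0.34). Ptn had 1 adult and 43 pup UMIs in these cells, too few for a call. In esophageal stroma Mdk and Ptn were past 2-fold lower in the adult, at -1.12 (-2.03 to -0.31) and -1.12 (-1.49 to -0.77), where 13.0% of all genes tested were lower. The adult sums held 13 UMIs of Mdk and 72 of Ptn in 31 cells. Sdc2 and Sdc4 were higher in the adult but within 2-fold, at 0.86 (0.45 to 1.26) and 0.82 (0.27 to 1.35). In squamous cells of the esophagus only Ptprz1 of 6 genes with enough UMIs was past 2-fold lower in the adult, against 9.52% of all genes tested. In those of the GE-SCJ only Sdc4 of 4 such genes was, at -1.04 (-1.29 to -0.80), against 5.95%. Ptprz1 had 26 UMIs there in the adult and 58 in the pup, too few for a call, with a ratio of -2.37 (-3.08 to -1.69). Some adult cells had mostly embryonic cells as nearest neighbours in expression, 19 of 335 in the esophagus and 24 of 143 in the GE-SCJ. In adult esophageal stroma 0 of 31 did. Of pup cells 43 of 340 did in the esophagus, 56 of 615 in the GE-SCJ and 42 of 618 in the stomach. These included 14 of 44 squamous cells of the GE-SCJ and 12 of 78 stromal cells of the stomach.

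Ligands and receptors were set side by side by comparing stroma with the epithelium of its region. Mdk, Sdc2 and Lrp1 were past 2-fold higher in stroma and Sdc4 past 2-fold higher in epithelium in all 6 comparisons of esophageal stroma with squamous cells and of stomach stroma with columnar cells at E15, E19 and pup. In the E15 esophagus the log2 ratios of stroma over squamous cells were 1.93 (1.75 to 2.10) for Mdk, 2.04 (1.39 to 2.78) for Sdc2, 2.58 (2.12 to 3.09) for Lrp1 and -2.67 (-2.99 to -2.36) for Sdc4. Ptn was also higher in that stroma, at 1.53 (1.40 to 1.66). Of 8 genes with enough UMIs 4 were thus past 2-fold higher, against 15.7% of all genes tested. Sdc1 and Sdc4 were lower, against 6.29%. In the E15 stomach the ratios of stroma over columnar cells were 1.10 (1.02 to 1.17) for Mdk, 5.78 (5.47 to 6.11) for Ptn and -2.34 (-2.57 to -2.13) for Sdc4. With Sdc2, Sdc3 and Lrp1, 5 of the 8 genes with enough UMIs were past 2-fold higher in this stroma, against 18.1% of all genes tested. Sdc4 was lower, against 9.59%. At E19 and in the pup 20.5% and 25.2% of all genes were higher and 7.55% and 11.6% lower in the stroma of the esophagus. In that of the stomach 22.8% and 23.5% were higher and 13.0% and 16.2% lower. These comparisons leave out the GE-SCJ. There stroma and squamous cells held 1133 and 581 CPM of Mdk at E15, 932 and 72.3 at E19 and 188 and 16.8 in the pup. For Ptn they held 840 and 425 CPM at E15, 740 and 217 at E19 and 114 and 214 in the pup.

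Not every one of these calls held under each alternative. Sdc4 in the pup was within 2-fold with classes taken from markers, at -0.56 in the esophagus and -0.22 in the stomach, with both squamous labels joined in the esophagus, at -0.56, and in the stomach, at -0.9998, after cells under 1000 UMIs or over 10% mitochondrial UMIs were left out. Mdk in the E15 stomach was within 2-fold, at 0.96, with mitochondrial, ribosomal protein and hemoglobin genes left out of the library size.

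For Mdk the ratio of stroma over columnar cells was smaller at E15 than later. In the stomach it was 1.10 (1.02 to 1.17) at E15, 4.75 (4.60 to 4.90) at E19 and 4.51 (4.15 to 4.86) in the pups. At the GE-SCJ the same ratio was 0.32 (0.23 to 0.41) at E15, 3.13 (3.02 to 3.24) at E19 and 4.07 (3.61 to 4.52) in the pups. At E15 the GE-SCJ columnar cells thus held Mdk within 2-fold of the stroma around them. For Sdc4 the ratio was nearer to 0 after birth, going from -2.66 (-2.94 to -2.39) at E15 to -1.10 (-1.52 to -0.72) in the pup of the GE-SCJ, and in the adult esophagus stroma and squamous cells were within 2-fold at -0.13 (-0.60 to 0.30). The differences between stages in these ratios were not tested.

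Squamous and columnar cells of the GE-SCJ, which border each other at the junction, differed in Ptn and Sdc1 at each of E15, E19 and pup. The log2 ratio of squamous over columnar cells was 2.41 (2.10 to 2.73), 2.64 (2.29 to 2.98) and 5.08 (4.61 to 5.57) for Ptn. For Sdc1 it was 1.82 (1.42 to 2.23), 2.41 (2.10 to 2.70) and 3.09 (2.83 to 3.35). These were 2 of 5 genes with enough UMIs at E15, 3 of 7 with Lrp1 at E19 and 2 of 7 in the pup. The shares of all genes tested past 2-fold higher were 3.58%, 6.41% and 7.81%. Mdk, Sdc4 and Ncl were within 2-fold at all 3 stages. In these squamous cells the columnar markers, which include keratins of early squamous cells, summed to 3598 CPM at E15, 5981 at E19 and 2566 in the pups, and their part was not tested.

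Between esophagus and stomach no gene of the 9 was past 2-fold in stromal cells at all of E15, E19 and pup. At E15 none was, with 2.59% of all genes higher and 2.45% lower in the esophagus. At E19 Sdc3 was lower in the esophagus, at -1.98 (-2.27 to -1.69), against 4.11% of all genes, and in the pup Ptn was higher there, against 3.33%. Squamous cells of the 2 regions that hold them differed in Mdk at E15, with a ratio of esophagus over GE-SCJ of -1.01 (-1.22 to -0.80), against 1.69% of all genes. In the pup they differed in Ptprz1, at 2.28 (1.86 to 2.71), against 7.14%, and in Sdc1, at -1.03 (-1.41 to -0.67), against 5.99% of all genes lower.

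Other genes of the pathway were read in stromal cells at E15 over pup. Of 21 other binding partners of the ligands 9 had enough UMIs in each region, with 1 past 2-fold higher in each and 1, 2 and 0 lower in esophagus, GE-SCJ and stomach. Their median ratios were -0.16, -0.44 and -0.23. For these lists the shares over all genes are those of the stroma given above, 12.0%, 12.8% and 10.5% higher and 8.84%, 7.89% and 6.88% lower, and 1 of 9 is near them. Ptprs, a receptor phosphatase that binds heparan sulfate, was the partner higher in all 3 regions, at 1.01, 1.43 and 1.21. Of 11 other heparan sulfate proteoglycans 10 were in the matrix and 8 had enough UMIs, with 2 higher in each region, 1, 4 and 2 lower, and medians of 0.21, -0.69 and -0.15. Gpc6, a glypican, was higher at E15 in all 3, at 1.86, 1.44 and 2.44, and Tgfbr3, the betaglycan that presents TGF-β, lower, at -3.54, -3.77 and -3.08. Of 27 genes of heparan sulfate synthesis and editing 26 were in the matrix and 11, 9 and 11 had enough UMIs, with 1 higher and none lower in each region and medians of 0.09, -0.36 and 0.47. Of 9 syndecan adaptors and sheddases 6, 5 and 5 had enough UMIs, and 1 was higher and 2 lower in the esophagus and none in the other regions, with medians of -0.47, 0.05 and -0.06.

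Genes with the most similar pattern were named for each gene by Pearson's r of log2(CPM + 10) over the 55 groups, which share 1 library, among 11672 genes. For Mdk they were Atxn7l3b (r = 0.862), Maged1 (0.861) and Epm2aip1 (0.850), and for Ptn its binding partner Ptprs (0.879), Efs (0.847) and the microRNA host gene Mir100hg (0.846). Sdc1 went with Nectin1 (0.889), an adhesion molecule, and with Sfn (0.846) and Serpinb5 (0.843), which are genes of stratified epithelium. Sdc2 went with Sspn (0.921), Col6a1 (0.913), a matrix collagen, and Loxl2 (0.911), and Sdc3 less closely with Gnaq (0.773), Gng2 (0.750) and Topors (0.746). Lrp1 went with Axl (0.881), Pid1 (0.838) and Cacna1d (0.837), and Ncl with Serbp1 (0.938), Npm1 (0.933), another nucleolar protein, and Set (0.908). Ptprz1 went with Arvcf (0.880), Sox10 (0.865), a transcription factor of glia, and Ttyh1 (0.864). Among pairs of the 9 genes themselves r was highest for Mdk and Ptn at 0.679 and lowest for Sdc1 and Sdc3 at -0.464.

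Sdc4 was most similar to Frrs1 (r = 0.785), Cdkn1a (0.768), a cell cycle inhibitor, and Atf3 (0.745), a transcription factor induced by stress and by cell dissociation. In esophageal stroma Atf3 stood at 49.9 CPM at E15, 39.8 at E19, 634 in pup and 24.8 in adult mice. Cdkn1a stood at 10.8, 14.9, 94.0 and 229 CPM in the same groups. Atf3 was thus high with Sdc4 in the pup, while in the adult Sdc4 was higher and Atf3 lower than in the pup. The pup level of Atf3 was also higher than that of E15 in stroma of the GE-SCJ, at 483 against 89.1 CPM, and of the stomach, at 394 against 45.3 CPM, and its part in the Sdc4 result was not tested.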

How the data were processed

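Single cells of 3 regions and 4 stages were tagged, pooled and sequenced with 10x Genomics 3′ CellPlex chemistry. The authors counted UMIs with Cell Ranger 6.1.1 (multi pipeline) on the mm10 build, sorted cells by tag, and filtered barcodes by detected genes, by UMIs and by the share of mitochondrial reads, as a screen for doublets and poor cells. They deposited raw counts without normalization for 7808 cells and 19550 genes, with a label per cell from their own clustering, the UMI total and the percent of mitochondrial UMIs. No further doublets were removed. By the sample labels 6 mice were used at E15, 2 at E19, 2 as pups and 3 as adults, but the methods speak of 3 mice combined.

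UMI counts were summed by label, region and stage and scaled to CPM. Levels carry exact 95% Poisson intervals, ratios exact conditional ones and shares Clopper-Pearson ones. A sum of 0 is given with the level of 3 counts. With 1 sample per group no test was run. Called means at least 2-fold, 100 UMIs over both groups and 20 cells in each.

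The genes, their lists and the comparisons were chosen with earlier results of these data known. Of each list, at most 4 genes past 2-fold in the same direction in all 3 regions are named, and for each of the 9 genes the 3 with the highest r among genes with at least 500 UMIs. Alternatives changed the cells, the class, the scaling, the filter and the fold, as the closing section gives. Joining the squamous labels was added after seeing the data.

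Neighbours were the 15 nearest cells in 30 principal components of 2000 variable genes. In data simulated for esophageal stroma at E15 and pup (6275 genes, of which 174 were changed), 99.4% of the changed genes were found past 2-fold in the right direction and 12 of 6101 unchanged ones passed. All changes put into these data were larger than 2-fold, and only counting error was drawn. The simulation thus cannot show how calls fare with smaller changes or with differences between cells or mice. Gene positions are from GENCODE M21. Sums and intervals used pandas 2.3.3, numpy 2.4.6 and scipy 1.17.1 in Python 3.11.15, neighbours scanpy 1.11.5 and plots matplotlib 3.10.9. Organoids, tissue images and cells of other studies are not analysed here.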

Additional observations from a re-analysis of the deposited data

Results flagged for a closer look

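Some genes changed in opposite directions across birth in different labels of the same region. These differences between labels were not tested, since each group is 1 sample, and all values are log2 ratios of E15 over pup. Ptn in the stomach was higher at E15 in stromal cells (2.38), smooth muscle (1.68) and columnar cells (1.45) and lower in neural cells (-1.52). Sdc3 was higher at E15 in stromal cells and lower in neural cells, with 1.5 against -1.89 in the esophagus and 2.14 against -1.76 in the stomach. Stromal Sdc3 in the pup rests on 6 UMIs in the esophagus and 4 in the stomach, and neural Sdc3 on 32 and 28. Lrp1 in the stomach was lower at E15 in smooth muscle (-1.76) and higher in columnar cells (1.37). The pup stomach neural group held 20 cells, in which fibroblast markers summed to 8183 CPM against 299 at E15.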

How the results depend on the processing

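Between E15 and pup in stromal cells, 4 genes were past 2-fold in all 3 regions. The count was 2 with classes taken from markers, where Sdc1 and Sdc3 were lost, and 1 at a fold of 3, where Mdk was left. Sdc4 was lost with CPM averaged over single cells and without the 1% of cells richest in the gene. Between adult and pup in esophageal stroma, 2 genes were past 2-fold, 1 with classes from markers, 5 at a fold of 1.5 and 0 at a fold of 3. Between stroma and epithelium, 4 genes were past 2-fold in all 6 comparisons and 2 at a fold of 3. Sdc4 was lost from this count when both squamous labels were joined, with the filter on cells and with classes from markers, which added Ptn, and Mdk was lost with the shorter library size. The counts for squamous against columnar cells and for esophageal against stomach stroma did not move under any alternative run. Of the 27 genes named for their pattern, 17 were named again with log2(CPM + 1) and 10 in groups with at least 40 cells. One ratio was reversed, that of Sdc4 in smooth muscle over stroma of the pup stomach, from 1.08 to -0.11 with classes from markers. The causes were not tested. Leaving hemoglobin, mitochondrial and ribosomal protein genes out of the library size moved 263 of 495 CPM values and 26 of 582 ratios. Classes from markers moved 90 of 446 ratios, averaging CPM over single cells 64 of 582 and leaving out the 1% of richest cells 26 of 582. Squamous against columnar cells could not be run with classes from markers, since too few cells were left. No paired analysis was possible because the labels give no replicate numbers and each group is 1 sample. Pup stromal groups had 78 to 151 cells and the adult one 31, so that sums under 20 UMIs limit Mdk, Sdc1 and Sdc3 there.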

Other observations

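The second stromal label had a profile of its own. Over all its groups mesothelial markers, summed over 4 genes, stood at 1841 CPM against 7.64 in the main stromal label. Its 46 cells of the E19 GE-SCJ held 992 CPM of Mdk (907 to 1082) and 355 of Ptn (305 to 410), beside 932 and 740 in the main stromal label of that group. Sdc4 stood at 281 CPM (237 to 330) against 58.7 in the main label, and Sdc3 at 3.90 CPM (0.472 to 14.1) against 59.8. Lrp1 was 66.2 CPM (45.9 to 92.6) against 204.

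Endothelial cells of the E19 GE-SCJ and stomach had Sdc3 at 40.4 and 71.0 CPM, with 5.76 CPM of Sdc2 in the former and no Ptprz1 UMI in either.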
